A study of Mus musculus with 4 samples.

Results

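Fibroblasts build the connective tissue around the mammary ducts. They secrete fibrillar collagens and small proteoglycans, carry the platelet-derived growth factor receptor Pdgfra, and signal to the epithelium through growth factors, matrix enzymes and chemokines. In many tissues fibroblasts that line vessels and connective tissue sheaths (adventitial fibroblasts) express Pi16, Dpp4 and Igfbp6, while other fibroblasts lie within the organ. Fibroblasts with fewer than 3 UMIs of those adventitial markers together are described here. They were selected on measured values: a barcode needed a summed level of at least 30 UMIs (unique molecular identifiers) per 10000 for Col1a1, Col1a2, Col3a1, Dcn and Lum. It also needed fewer than 3 UMIs of the endothelial genes Pecam1, Cdh5 and Egfl7 together, fewer than 3 of Cxcl13, and fewer than 3 of Pi16, Dpp4 and Igfbp6 together. Of 36884 barcodes in the series, 136 (0.369%) met the rule. The same rule with 3 or more adventitial UMIs gave 1011 adventitial fibroblasts, and 35679 barcodes stayed below 30 per 10000 and are called non-fibroblast. Of the barcodes over the threshold, 14 were left out for endothelial UMIs and 44 for Cxcl13 alone.

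The study profiled sorted cells of the mouse mammary gland by droplet single-cell RNA sequencing, which tags the 3′ ends of transcripts, to compare the mammary cells of control and Zeb1 MSKO mice. The Zeb1 protein binds DNA through zinc fingers and can silence genes of epithelial cell junctions. There were 4 libraries from C57BL/B6 mice, 1 per genotype at 8 weeks (replicate 1) and at 9 weeks (replicate 2). What MSKO stands for is not spelled out in the labels, which also do not give the control genotype beyond that word, and do not state the deleted part of Zeb1, the cells that lost it, or whether libraries came from separate animals. No source used here names the sort markers. A sort sets which cells enter a library, so shares of barcodes are shares of the sorted suspension.

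The 8-week libraries gave 36 non-adventitial barcodes in control and 91 in Zeb1 MSKO, and the 9-week libraries gave 6 and 3. Their summed depth was 266973, 743204, 63950 and 38906 UMIs in the same order, and the median barcode held 5343, 5613, 7338 and 10423 UMIs. A count of 3 UMIs, used as the floor for an undetected gene, corresponded to 11.2, 4.04, 46.9 and 77.1 UMIs per 1000000 (CPM) of these sums. The 9-week values therefore rest on few cells, and genotypes were compared mainly at 8 weeks. Across the series 1372 barcode sequences occurred in more than 1 library, and 4 of the 136 barcodes carried such a sequence. Of the 136, 14 were called doublets by a neighbour score.

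The threshold did not separate discrete populations. The median barcode had 128 UMIs per 10000 of the 5 rule genes, with a range from 30.2 to 1066, against a median of 247 in adventitial fibroblasts. Just inside the threshold, 19 barcodes lay between 30 and 35, and just outside it another 19 lay between 25 and 30. On the adventitial side, 74, 30 and 32 barcodes had 0, 1 and 2 UMIs of Pi16, Dpp4 and Igfbp6, and 29, 26 and 32 had 3, 4 and 5. A deep barcode reaches 3 UMIs more easily than a shallow one, and adventitial fibroblasts had a median of 7402 UMIs. When every barcode was thinned to 2500 UMIs and any adventitial UMI counted, 97 of the 136 stayed in the class.

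The markers bore out the label in only a part of the 136 barcodes. Dcn, which encodes the proteoglycan decorin, made up over 80% of the UMIs of the 5 rule genes in 56 of them. Summed per library, the Dcn share of these UMIs was 48.3% and 65.0% in control and Zeb1 MSKO at 8 weeks and 53.1% and 78.0% at 9 weeks. Adventitial fibroblasts lay between 40.7% and 42.7% in all 4 libraries, and non-fibroblast barcodes between 71.3% and 93.2%. Pdgfra was seen in 37.5% of the non-adventitial barcodes and in 70.5% of adventitial fibroblasts. After thinning every barcode to 2500 UMIs these shares were 27.2% and 38.7%, against 0.267% in a sample of 3000 non-fibroblast barcodes. Col1a1 was seen in 61.8%, 97.0% and 0.533% of the thinned barcodes in the same order, with median depths of 5693, 7402 and 9027 UMIs before thinning. Dcn UMIs were spread wider: 10.2% of the thinned non-fibroblast barcodes had one, against 97.1% of the non-adventitial barcodes.

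To describe this mixture the 136 barcodes were grouped by their own expression into 6 clusters, numbered by falling median level of the rule genes. The genes that lead a cluster formed it and are given as a description with no test. Clusters 1 (29 barcodes) and 2 (35 barcodes) carried the full set of fibroblast markers, with medians of 342 and 237 UMIs per 10000 of the rule genes. Col1a1 was at 5268 and 2896 CPM in them, Col1a2 at 4658 and 3031, Col3a1 at 5380 and 6473, and Pdgfra at 348 and 199.7 CPM. Col1a1 was detected in 29 of 29 and 34 of 35 barcodes. Dcn made up 43.4% and 47.7% of the rule genes' UMIs, near the adventitial share. In both clusters most barcodes carried 1 or 2 UMIs of Pi16, Dpp4 and Igfbp6, so they were not free of these markers.

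Cluster 1 led with genes of matrix assembly and local signalling. Mfap4, a microfibril protein, was at 531 CPM against 32.3 in the other non-adventitial barcodes. Hsd11b1, which regenerates active glucocorticoid, was at 558 against 39.6 CPM. The transmembrane collagen Col13a1 was at 210 against 5.21 CPM. Other leading genes were the hedgehog co-receptor Gas1, the cell-cycle inhibitor Cdkn1c and the phospholipase Pla1a. Cluster 2 led with genes of lipid handling, matrix and interferon response: the fatty acid carrier Fabp4 at 1057 against 10.6 CPM, the apolipoprotein Apod at 1433 against 116, the matrix protein Smoc2 at 658 against 25.5 and the interferon-inducible gene Ifi27l2a at 1263 against 128. Ly6c1 and Pcolce2, which also rank among the genes lower in these barcodes than in adventitial fibroblasts, were among its 15 leading genes.

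Cluster 3 (27 barcodes, 9 in control and 18 in Zeb1 MSKO at 8 weeks) was led by chemokines and antigen presentation genes. The CCR7 ligands Ccl21a and Ccl19, known from the stroma of lymph nodes, were at 18205 and 1747 CPM, against 0 and 10.9 in the other non-adventitial barcodes. Each of these genes has near-identical copies, so their counts are uncertain. Ccl21a was detected in 14 of the 27 barcodes and Ccl19 in 24. The alarmin Il33 was at 1007 CPM, the intermediate filament gene Des at 529, the invariant chain gene Cd74 at 1115 and the chemokine gene Cxcl12 at 6370. Dcn reached 10200 CPM, but Col1a1 was only at 765 and Pdgfra at 92.5 CPM. Markers of macrophages or dendritic cells summed to 1135 CPM in this cluster, although 4 of the 7 (Csf1r, C1qa, C1qb and Adgre1) were at 0 UMIs over all 136 barcodes. Pericyte or smooth muscle markers, a list that includes Des, summed to 1084 CPM. The cluster was left unnamed.

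The other 3 clusters carried epithelial or hair keratins, and clusters 4 and 5 passed the rule almost wholly on Dcn. Cluster 4 (8 barcodes, median 15869 UMIs) had 99.8% of its rule UMIs from Dcn. The luminal keratins Krt8 and Krt18 were at 5241 and 5949 CPM there and the prolactin receptor Prlr at 2258 CPM, with Col1a1, Col1a2, Lum and Pdgfra at 0 UMIs. Cluster 5 (25 barcodes, median 14885 UMIs) had 98.9% from Dcn, and all of it came from the Zeb1 MSKO library at 8 weeks, so it may be particular to that library. It was led by the hair follicle keratins Krt28 (415 CPM) and Krt25 (387 CPM), the homeobox gene Dlx2 (340 CPM), the fatty acid carrier Fabp5 (2717 CPM) and cell-cycle genes such as Stmn1 (2136 CPM) and Top2a (224 CPM). Hair follicle keratinocyte markers summed to 4.87 CPM in the non-fibroblast barcodes of the control library and 332 CPM in those of the Zeb1 MSKO library at the same age. Cluster 6 (12 barcodes) had Acta2, a smooth muscle actin also used by myoepithelial cells, at 4632 CPM and the basal keratin Krt14 at 1745 CPM, beside Col3a1 at 1063 CPM. Dcn made up 56.4% of its rule UMIs.

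**Figure D1:**
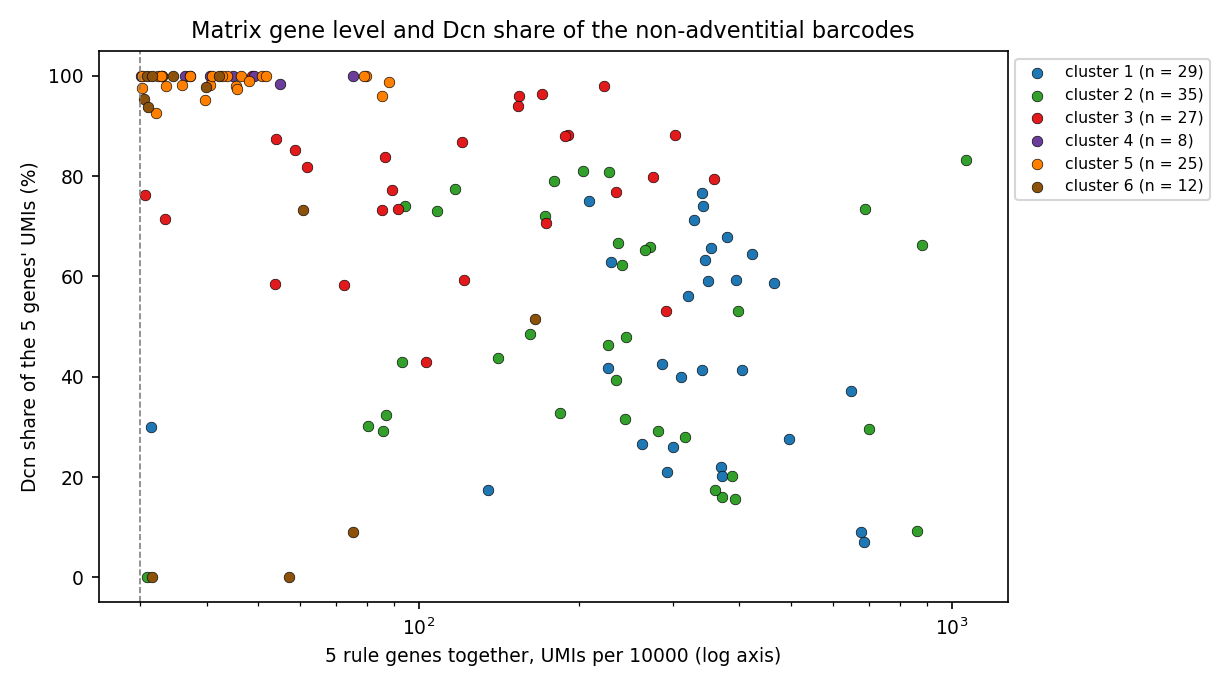
Each point is 1 of the 136 non-adventitial barcodes, coloured by cluster, with the summed level of the 5 rule genes on a log x axis (UMIs per 10000, dashed line at the threshold of 30) and the Dcn share of those UMIs on the y axis (%). Clusters 4 and 5 sit near 100% at low levels, while clusters 1 and 2 spread around 43.4% and 47.7% at high levels.

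**Figure D2:**
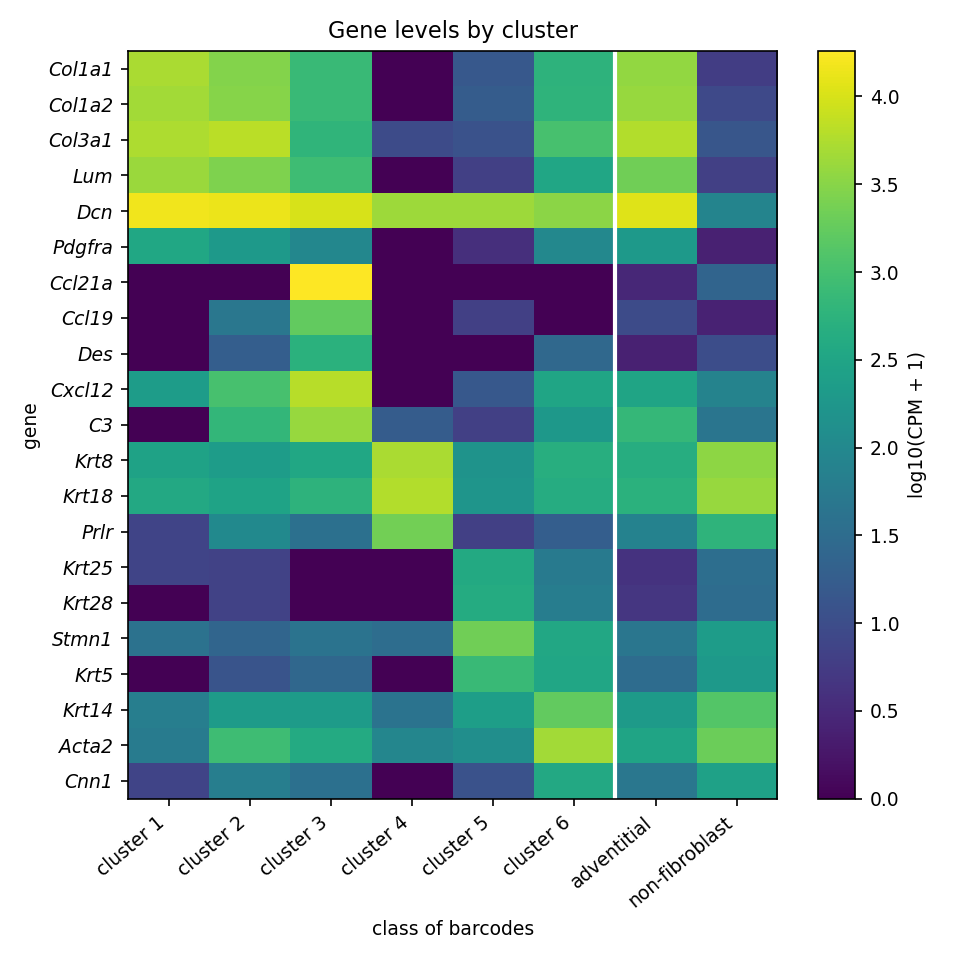
Colour gives log10(CPM + 1) of each gene (rows) in the summed UMIs of each cluster, and for adventitial and non-fibroblast barcodes the mean of the 2 libraries at 8 weeks (columns). Dcn is high in every cluster, and Col1a1 and Pdgfra are highest in clusters 1 and 2, with lower levels in clusters 3 and 6. Ccl21a stands out in cluster 3, Krt8 and Prlr in cluster 4, Krt25 and Krt28 in cluster 5, and Acta2 in cluster 6.

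The libraries contributed unequally to the clusters. Clusters 1 and 2 together held 23 of the 36 control barcodes and 39 of the 91 Zeb1 MSKO barcodes at 8 weeks, and 1 of 6 and 1 of 3 at 9 weeks. At 8 weeks cluster 4 held 3 control barcodes and 1 Zeb1 MSKO barcode, cluster 5 held 0 and 25, and cluster 6 held 1 and 8. At least 5 UMIs of Krt14, Krt5, Krt8, Krt18 and Epcam together were found in 10 of 36 control and 47 of 91 Zeb1 MSKO barcodes at 8 weeks, and in 4 of 6 and 2 of 3 at 9 weeks. Adipocyte markers were at 0 UMIs for all 5 genes, and no barcode had 3 or more lymphocyte marker UMIs. Endothelial UMIs were held below 3 for Pecam1, Cdh5 and Egfl7 by the rule itself.

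**Figure D3:**
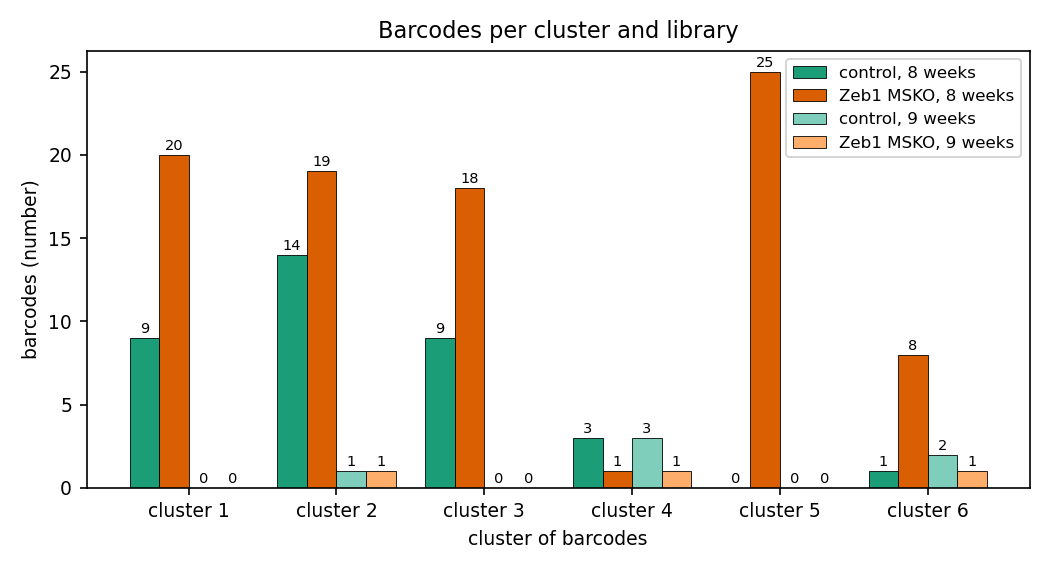
Bars give the number of barcodes of each cluster (x axis) in each of the 4 libraries (colours), with the number above each bar. The Zeb1 MSKO library at 8 weeks supplies all 25 barcodes of cluster 5, and no library at 9 weeks has more than 3 barcodes in a cluster.

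Over the 2 libraries at 8 weeks, the genes with the largest ratio to non-fibroblast barcodes were mostly matrix and chemokine genes. Rule genes were among them (Col1a1, Lum, Col3a1, Col1a2 and Dcn), with 377-fold for Col1a1 and 113-fold for Dcn, and they are no finding. Outside the rule the highest ratios were 424-fold for the adhesive glycoprotein gene Vtn, which cluster 3 supplied in the main, and 344-fold for the methyltransferase gene Inmt. The list also held Tnfaip6 (202-fold), a hyaluronan-binding protein, the matrix enzyme Mmp3 (172-fold), the matrix protein Ccdc80 (147-fold), Ccl11 (139-fold), Ccl7 (120-fold), Dpt (114.5-fold) and Il6 (110-fold). Most of them were not particular to these barcodes in level. Tnfaip6 was at 2656 and 881 CPM in control and Zeb1 MSKO here and at 2988 and 1779 CPM in adventitial fibroblasts, and Dpt was at 517 and 367 CPM against 1693 and 1388 CPM. Inmt was at 236 and 223 CPM here and at 172 and 318 CPM in adventitial fibroblasts.

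Against adventitial fibroblasts, the higher genes were those of cluster 3 and the lower genes were adventitial genes outside the rule. Ccl21a was at 5502 and 2792 CPM in control and Zeb1 MSKO at 8 weeks, against 0.582 and 3.37 CPM in adventitial fibroblasts. Des was at 109 and 108 CPM against 1.45 and 1.44 CPM, and Vtn at 273 and 203 CPM against 28.8 and 29.8 CPM. Clu, Cd74, Ccl19, Kcne4 and Cxcl5 were also among the 12 largest, as were Krt28, Ube2c and Gjb2, which were high in the Zeb1 MSKO library alone. Among the lower genes, the steroid-metabolising enzyme Akr1c18 was at 3.75 and 2.69 CPM against 277 and 116 CPM. The surface sialomucin Cd248 was at 41.2 and 8.07 CPM against 349 and 297 CPM, and the scavenging chemokine receptor Ackr3 at 22.5 and 8.07 CPM against 343 and 223 CPM. Sfrp4, a secreted Wnt inhibitor, Sema3c, Fndc1, Ly6c1 and Pcolce2 were lower in both libraries as well. These differences carry no test, since the adventitial UMIs chose the classes.

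At 8 weeks non-adventitial barcodes were 0.368% of the control library (Wilson 95% interval 0.266% to 0.509%) and 0.939% of the Zeb1 MSKO library (0.765% to 1.15%). At 9 weeks they were 0.0787% (0.0361% to 0.171%) and 0.0307% (0.0104% to 0.0902%). Control libraries had a mean share of 0.223% ± 0.204 and Zeb1 MSKO libraries one of 0.485% ± 0.642 (SD, n = 2 each). By a two-sided exact permutation test p was 1, where 0.3333 is the smallest p these groups allow. The Zeb1 MSKO share was thus the higher at 8 weeks and the lower at 9 weeks, and the difference of the means was below the spread between libraries. Of adventitial and non-adventitial fibroblasts together they were 7.91% and 14.5% at 8 weeks and 19.4% and 8.57% at 9 weeks (means 13.6% ± 8.09 and 11.6% ± 4.22, SD, n = 2 each; exact permutation p = 1). Barcodes of clusters 1 and 2 alone were 5.20% and 6.79% of the fibroblasts at 8 weeks. Intervals cover counting error only, and fewer cells cannot be told apart from a difference in the sort or in dissociation.

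Zeb1 itself was detected at 8 weeks, with 41.2 CPM in control barcodes and 26.9 CPM in those of Zeb1 MSKO, and had 0 UMIs in both 9-week libraries, where the floor was 46.9 and 77.1 CPM. In clusters 1 and 2 it was at 68.5 CPM (exact Poisson 95% interval 31.3 to 130.0) in control and 83.0 CPM (46.5 to 137) in Zeb1 MSKO. Its level in the Zeb1 MSKO library was lower over all the barcodes and higher within clusters 1 and 2, and the intervals overlapped. Because reads come from the 3′ end and the deleted part is not stated, these counts do not check the labels. Its paralog Zeb2 was at 116 and 60.6 CPM at 8 weeks.

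Between genotypes, the quasi-likelihood test of edgeR over the 4 libraries left 0 of 2396 genes past the threshold (0%). An unadjusted p under 0.05 was seen for 76. DESeq2 called 1, Ly6d, a surface protein of luminal cells (log2 fold change -5.04, SE 0.91, DESeq2 adjusted p = 0.000407). Ly6d was at 828 and 51.1 CPM in control and Zeb1 MSKO at 8 weeks and at 3049 and 77.1 CPM at 9 weeks, lower in Zeb1 MSKO at both ages. Of its UMIs 403 lay in cluster 4, which has luminal keratins, and 54 in the other non-adventitial barcodes. Cluster 4 held 3 control barcodes and 1 Zeb1 MSKO barcode at each age. In clusters 1 and 2 the 8-week log2 ratio of Ly6d was 0.32. The part of cluster 4 in the call was not tested. With age as a block, edgeR called 11 genes higher (0.459% of 2396) and 43 lower (1.79%) at an adjusted p under 0.05. The lower genes included luminal genes, among them Krt8 (log2 fold change -2.08, SE 0.39, edgeR adjusted p = 0.000117), Krt18, Krt19, Aqp5 and Csn3. They also included matrix genes: Col3a1 fell by 1.84 (SE 0.38, edgeR adjusted p = 0.00055), and Col1a1, Fn1 and Postn were called lower too. Col3a1 and Col1a1 are rule genes, and clusters 1 and 2 supplied 23 of 36 control but 39 of 91 Zeb1 MSKO barcodes at 8 weeks. The fits use summed UMIs, of which they supplied 131434 of 266973 in control and 180652 of 743204 in Zeb1 MSKO. Without the block, Col3a1 had an edgeR adjusted p = 0.9998 over all the barcodes and 0.9995 within those clusters. The higher genes included Fabp5, Stmn1 and Hmgb2, which are leading genes of cluster 5.

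Among genes with at least 50 CPM in 1 of the 8-week libraries, 388 of 3065 (12.7%) were at least 2-fold higher in the Zeb1 MSKO barcodes and 367 (12%) at least 2-fold lower. There is 1 library per genotype at this age, so these ratios have no replicate check. Of the 388 higher genes 174 had the same sign at 9 weeks, and of the 367 lower genes 209 did. A gene with no UMIs in either 9-week sum has no sign there, so the remaining genes need not have turned sign. No share over all genes was set beside these counts. The 9-week libraries held 6 and 3 barcodes, so a kept sign can rest on very few UMIs and is not a replicate check. At that age the hair follicle keratinocyte markers, which include Krt28, summed to 0 (control) and 25.7 (Zeb1 MSKO). Both sums lay below the floors of 46.9 and 77.1 CPM. Most of the largest ratios that kept their sign at 9 weeks were under 2-fold or of the other sign within clusters 1 and 2. Higher in Zeb1 MSKO were Krt28 (0 and 211 CPM in control and Zeb1 MSKO), Fabp5 (29.97 and 1389 CPM), Stmn1 (45.0 and 1095 CPM) and the chromatin protein gene Hmgb1 (453 and 1901 CPM). Lower were the defensin gene Defb1 (165 and 1.35 CPM), Wfdc2 (1112 and 49.8 CPM), the milk protein gene Csn3 (281 and 18.8 CPM), the water channel gene Aqp5 (453 and 41.7 CPM) and Krt19 (2862 and 285 CPM). The exceptions, past 2-fold in the same direction within clusters 1 and 2, were Rps18-ps3 (log2 ratio 1.91), Rps26-ps1 (1.73), Csn3 (-2.37) and Wfdc18 (-1.38). Both Rps genes are ribosomal pseudogenes that can share reads with near-identical copies, so their counts are uncertain. Csn3 rested on 22 and 4 UMIs there, with 54.55% of the 22 in 1 barcode, and was highest in cluster 3, at 231 CPM. Without called doublets the log2 ratio over all the barcodes was -1.11 for Csn3 and 0.97 for Wfdc18. In the same libraries luminal progenitor markers summed to 1330 and 174 CPM in these barcodes, pan-epithelial markers to 7993 and 1192, and basal markers to 513 and 1889 CPM. The part of the unequal clusters in these ratios was not tested with replicates.

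Cell-cycle genes showed how far the clusters and the genotypes coincided. All 10 G2 and M phase genes at 50 CPM and 11 of 12 S phase genes were at least 2-fold higher there, beside 12.7% of all 3065 genes. Their medians were 3.98 and 3.02 on the log2 scale, beside 0.00 over all genes. Top2a, the topoisomerase of dividing cells, was at 0 and 119.8 CPM in control and Zeb1 MSKO, and Pcna, the replication clamp, at 37.5 and 139 CPM. In clusters 1 and 2 no G2 and M phase gene reached 50 CPM, and the list summed to 38.0 CPM in control and 27.7 in Zeb1 MSKO. Of the barcodes with a Top2a UMI, cluster 5 held 11 and cluster 6 held 1.

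Within clusters 1 and 2, 231 of 3037 genes (7.61%) were at least 2-fold higher and 213 (7.01%) at least 2-fold lower in Zeb1 MSKO at 8 weeks. In adventitial fibroblasts, at much greater depth, 44 of 2725 genes (1.61%) were higher and 27 (0.991%) lower. The 2 clusters held 131434 UMIs in control (23 barcodes, median 4785) and 180652 in Zeb1 MSKO (39 barcodes, median 3828), so a gene at 50 CPM rests on few UMIs. Of the genes higher over all the barcodes, 165 were at 50 CPM in clusters 1 and 2 and 46 of those were also 2-fold higher there. Of the lower genes 296 were at 50 CPM there and 90 were also 2-fold lower. Over the 4 libraries edgeR left 0 of 1121 genes past the threshold in these clusters, where each 9-week library supplied 1 barcode. An unadjusted p under 0.05 was seen for 28, and DESeq2 was not run there.

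**Figure D4:**
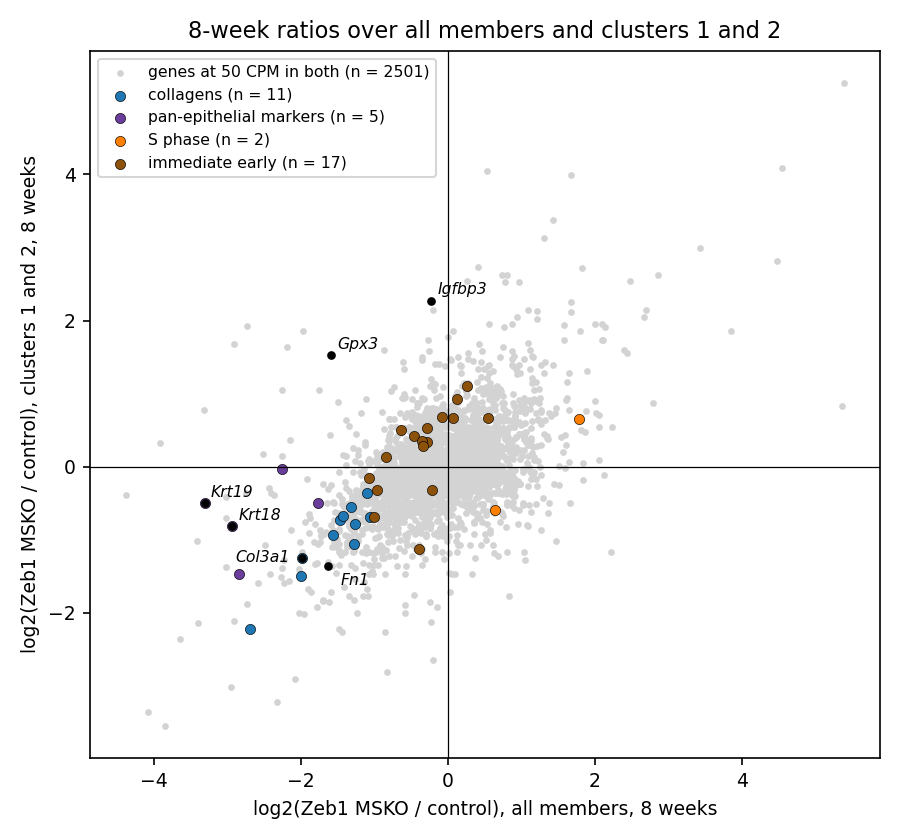
Each grey point is a gene at 50 CPM or more in both sets of barcodes, with its log2 ratio of Zeb1 MSKO to control at 8 weeks over all non-adventitial barcodes (x axis) and in clusters 1 and 2 (y axis), and coloured points are gene lists. Collagen genes lie below 0 on both axes, Krt19 and Krt18 lie further from 0 on the x axis than on the y axis, and Gpx3 lies to the left on the x axis and above 0 on the y axis.

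Collagens were lower in the Zeb1 MSKO barcodes in both sets. All 11 genes of the fibrillar collagen list at 50 CPM were at least 2-fold lower over all the barcodes (median log2 ratio -1.43), beside 12% of all genes. The list holds the rule genes Col1a1, Col1a2 and Col3a1, on which the barcodes were chosen, and no count was made without them. That sum includes cluster 5, found in the Zeb1 MSKO library alone, with Col1a1 at 13.8 and Col3a1 at 11.1 CPM. Its 25 barcodes were deep, with a median of 14885 UMIs, and so weigh more in a sum than their number. Its part in the ratios was not tested. In clusters 1 and 2, 4 of 12 were 2-fold lower, beside 7.01% of all genes (median -0.76, beside -0.04 over all 3037 genes). In clusters 1 and 2 Col16a1 alone lay above 0, at 0.07. In adventitial fibroblasts 0 of 11 were past 2-fold, with a median of -0.06. Col3a1, collagen III (mm10 chromosome 1, 45311538 to 45349706, plus strand), had 9100 CPM in the control library and 3808 CPM in the Zeb1 MSKO library in clusters 1 and 2 at 8 weeks, a log2 ratio of -1.25 (exact counting interval -1.39 to -1.12). At 9 weeks 19 UMIs in each library gave 4635 and 2930 CPM, with intervals of 2791 to 7239 and 1764 to 4575 that overlapped. In adventitial fibroblasts Col3a1 was at 6192, 5743, 6283 and 5599 CPM in control and Zeb1 MSKO at 8 weeks and then at 9 weeks.

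The lower Col3a1 level was seen in each of the 2 clusters. It was at 7428 and 4014 CPM in control and Zeb1 MSKO in cluster 1 and at 10547 and 3598 CPM in cluster 2. In cluster 3, where collagen levels were low, the order was the reverse, at 179 and 885 CPM. Per barcode the difference was smaller: the median was 49.7 UMIs per 10000 in the 23 control barcodes (range 3.15 to 268) and 29.4 in the 39 Zeb1 MSKO barcodes (range 0 to 386). A single control barcode held 24.8% of the control UMIs, and the ranges overlapped widely. Col1a1, collagen I (chromosome 11, 94936224 to 94953042, plus strand), had a log2 ratio of -0.73 in these clusters, with medians of 27.0 and 23.6 UMIs per 10000. Col1a2 had a log2 ratio of -0.36, with medians of 32.8 and 28.6. The fit across 4 libraries gave Col3a1 a log2 fold change of -0.98 (SE 0.63) in clusters 1 and 2 with an edgeR adjusted p = 0.9995. Each 9-week library entered that fit with 1 barcode. Because Col1a1, Col1a2, Col3a1, Dcn and Lum are rule genes, the threshold bounded their summed level from below in either genotype. It did not bound each gene, as the range of Col3a1 shows.

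The genotype effect on non-adventitial barcodes was also compared with that on adventitial fibroblasts in 1 fit with the library as a block, and edgeR left 0 of 4365 genes past the threshold (0%). An unadjusted p under 0.05 was seen for 88, and DESeq2 called 0. For Col3a1 the difference of the log2 fold changes was -1.64 (SE 0.68, edgeR adjusted p = 1), and in clusters 1 and 2 alone -0.73 (SE 1.09, edgeR adjusted p = 1). With clusters 1 and 2 the fit called 1 gene, Tac1, the precursor of the neuropeptide substance P (difference -4.47, SE 0.89, edgeR adjusted p = 0.00197). Each 9-week library entered that fit with 1 barcode of these clusters. Tac1 was at 266 and 11.1 CPM in control and Zeb1 MSKO in these clusters at 8 weeks and at 57.0 and 54.1 CPM in adventitial fibroblasts. Its 35 control UMIs came from 3 barcodes, and 1 of them held 65.7%.

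Other matrix genes varied by gene. Fn1, fibronectin (chromosome 1, 71585520 to 71653200, minus strand), had 1286 CPM (control) and 493 CPM (Zeb1 MSKO) in clusters 1 and 2 at 8 weeks, with intervals of 1099 to 1495 and 396 to 606. It was also lower in adventitial fibroblasts, at 1760 and 943 CPM, and there the order turned at 9 weeks, at 1688 and 2053 CPM. Postn, the matricellular protein periostin, had a log2 ratio of -1.03 in clusters 1 and 2. It was at 2935 and 2494 CPM in cluster 1 and at 2754 and 235 CPM in cluster 2. Smoc2 was at 1136 and 347 CPM in cluster 2, but it was seen in only 9 of 23 and 9 of 39 barcodes of both clusters. A single barcode held 35.7% of its control UMIs, and 1 held 59.0% of its Zeb1 MSKO UMIs. Mgp, an inhibitor of calcification, had a log2 ratio of 1.21 in these clusters and was at 328 and 2209 CPM in cluster 1 but at 823 and 549 CPM in cluster 2. Of the elastic fibre and adhesive matrix list 11 of 20 genes were 2-fold lower and 1 higher over all the barcodes, beside 12% and 12.7% of all genes. In clusters 1 and 2 the counts were 3 and 1 of 21, beside 7.01% and 7.61%.

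Small leucine-rich proteoglycans, basement membrane genes and collagen enzymes had median ratios below 0 in both sets. Dcn was at 16168 and 13335 CPM in clusters 1 and 2 in control and Zeb1 MSKO at 8 weeks. The proteoglycan list, which holds the rule genes Dcn and Lum, had a median log2 ratio of -0.47 over all the barcodes and -0.27 in clusters 1 and 2. Basement membrane genes had medians of -0.90 and -0.35. For collagen processing enzymes and crosslinkers, such as the collagen chaperone Serpinh1 (1285 and 755 CPM over all the barcodes), the medians were -0.79 and -0.18. In each list the value was closer to 0 in clusters 1 and 2, where 1 of 8, 1 of 12 and 2 of 10 genes were 2-fold lower, beside 7.01% of all genes. With so few genes, 1 of 8 and 1 of 12 are near that share.

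**Figure D5:**
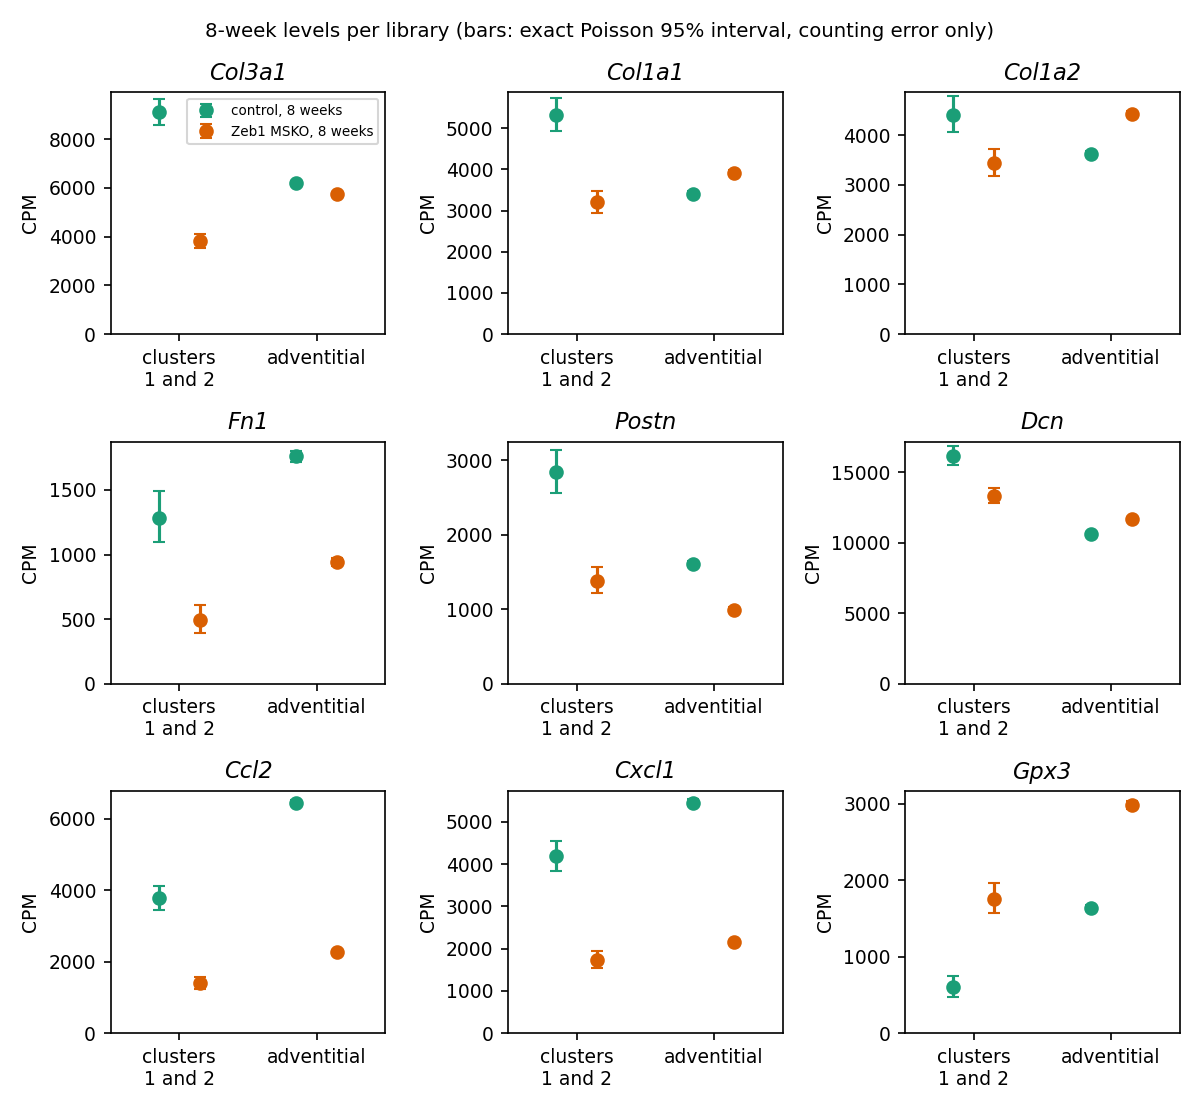
Points give the CPM of 9 genes in both libraries at 8 weeks (control and Zeb1 MSKO), in clusters 1 and 2 and in adventitial fibroblasts, with exact Poisson 95% intervals that cover counting error only. Col3a1 is at 9100 and 3808 CPM in clusters 1 and 2 and at 6192 and 5743 CPM in adventitial fibroblasts, while Ccl2, Cxcl1 and Fn1 are lower and Gpx3 higher in Zeb1 MSKO in both.

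Chemokines did not share 1 direction in clusters 1 and 2. Ccl2, which attracts monocytes, was at 3781 and 1400 CPM in control and Zeb1 MSKO at 8 weeks, and Cxcl1, which attracts neutrophils, had a log2 ratio of -1.26. Adventitial fibroblasts of the same libraries showed the same direction, with Ccl2 at 6433 and 2269 CPM and a Cxcl1 log2 ratio of -1.34. A single control barcode held 43.5% of the Ccl2 UMIs, and in cluster 1 the order was the reverse, at 623 and 1050 CPM. Cxcl14 ran the other way, with 13 and 85 UMIs (98.9 and 470.5 CPM). Cxcl12 was at 746 and 637 CPM and Ccl11 at 966 and 819 CPM, both within 2-fold. The complement and innate list, which holds these genes, had 4 of 17 genes 2-fold lower and 1 higher in clusters 1 and 2, beside 7.01% and 7.61% of all genes. In cluster 3 Cxcl1 was at 5564 and 16894 CPM and Ccl2 at 12546 and 13559 CPM, so the level over all the barcodes (log2 ratio -0.05 for Cxcl1) mixed opposite orders.

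Gpx3, a secreted glutathione peroxidase, was at 601 and 1760 CPM in clusters 1 and 2 (log2 ratio 1.53, exact counting interval 1.19 to 1.93). It was detected in 16 of 23 control and 35 of 39 Zeb1 MSKO barcodes, with medians of 2.09 and 11.3 UMIs per 10000, and was higher in Zeb1 MSKO in cluster 1 (115 and 700 CPM) and in cluster 2 (1022 and 2847 CPM). At 9 weeks 6 and 21 UMIs in single barcodes gave 1464 and 3238 CPM. Over all the barcodes its order was the reverse at 8 weeks, at 2772 and 916 CPM. Igfbp3, a carrier of insulin-like growth factors, rested on few barcodes: 62 UMIs against 8 gave a log2 ratio of 2.27, and 51.6% of the 62 lay in 1 barcode. The metallothionein Mt1 had a log2 ratio of 0.76, with medians of 25.8 and 62.0 UMIs per 10000.

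Genes of dissociation stress were not uniformly shifted. Immediate early genes had a median log2 ratio of -0.33 over all the barcodes and 0.35 in clusters 1 and 2, with 1 of 17 genes past 2-fold in each direction there (7.61% of all genes were higher and 7.01% lower), and adventitial fibroblasts had a median of 0.30. Heat shock genes had medians of -0.17, -0.30 and 0.09 in the same order. Receptors of fibroblasts had 2 of 13 genes 2-fold lower in clusters 1 and 2 (7.01% of all genes were), of which Thy1, a surface glycoprotein, had a log2 ratio of -1.04. Mesenchymal transcription factors had 1 of 15, Twist1, with 21 and 13 UMIs. Of the BMP and TGF-beta pathway list 4 of 12 genes were 2-fold higher, beside 7.61% of all genes, and 1 lower, near the 7.01% of all genes. The higher ones included Id1, a target of BMP signalling, and Fst, an inhibitor of activin (8 and 56 UMIs). Of the 81 Id1 UMIs in Zeb1 MSKO 66.7% came from 1 barcode.

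Basal signal differed between the libraries within clusters 1 and 2. Basal markers summed to 91.3 CPM (control) and 1290 CPM (Zeb1 MSKO), and 0 of 23 and 10 of 39 barcodes had 3 or more such UMIs. A single Zeb1 MSKO barcode held 120 of the 233 UMIs of this list, nearly all of them from Acta2, which is on the list. That barcode held 79.2% of the 149 Acta2 UMIs. Acta2 is also a smooth muscle gene, so these UMIs do not mark basal epithelium by themselves. The basal keratins Krt14 (4 and 43 UMIs in control and Zeb1 MSKO) and Krt17 (2 and 38 UMIs) differed as well. Slpi, a secreted protease inhibitor, had 0 and 86 UMIs in these clusters (476 CPM in Zeb1 MSKO, against a control floor of 22.8 CPM), and 52.3% of the 86 lay in 1 barcode. In adventitial fibroblasts it was at 41.6 and 444 CPM at 8 weeks and in the reverse order at 9 weeks, at 293 and 21.8 CPM. Pan-epithelial markers ran the other way, at 1347 and 936 CPM. The part of such signal in the ratios of other genes was not tested.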

How the data were processed

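The authors deposited 1 table of unnormalised UMI counts (genes by barcodes, 4 libraries). Cell Ranger 2.1.0 and mm10 are named in the submitters' processing notes. No source used here says whether aggregation equalised depth. The barcode suffix named the library, per the labels. No barcode held fewer than 2566 UMIs, and none of the 136 had under 500 genes or over 10% mitochondrial counts. The choice of barcodes and all gene and marker lists was made with earlier results of these data known.

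UMIs were summed per library and class, and CPM are scaled to that sum. The main test was edgeR 4.0.16 (quasi-likelihood, TMM, its default filter on low counts, Benjamini-Hochberg threshold 0.05, n = 2 libraries per genotype). It was tested on simulated data: of 200 genes changed 4-fold in the genotype comparison 45 were recovered, and of 200 changed 16-fold 131. For the difference between classes 3 and 67 of 200 were recovered. False calls were 2 and 9 for genotype and 0 and 1 for the difference between classes. The simulation gave all libraries the same base profile and a fixed dispersion. It left out the unequal clusters and the few barcodes at 9 weeks, so recovery in the real data may be lower. DESeq2 1.42.0 was an alternative. Since no label ties a library to its own animal, p-values reflect the spread between these libraries alone, which may be technical. The replicate number stands for age, and deviations of same-age libraries from their genotype means had r = 0.467 over 2396 genes, and edgeR was also fitted with age as a block. Ratios at 8 weeks used a prior of 2 UMIs and a floor of 50 CPM, and intervals are exact and cover counting error only. Clusters came from Ward clustering of 15 components of 1500 variable genes and were formed after seeing the data. Doublets were called per library against simulated doublets at an assumed 8% and kept except in an alternative. Coordinates are from GENCODE vM21 (27722 of 27998 genes matched). Genes named were, for genotype, those called and then the 12 largest ratios each way at 100 CPM with the same sign at both ages. For other classes they were the 20 largest over non-fibroblast barcodes at 200 CPM and the 12 largest each way against adventitial fibroblasts. Each list gave its 4 most abundant genes and any past 2-fold. Cluster leaders and Cxcl1, Slpi, Tac1, Gas1 and other genes of clusters 1 and 2 were chosen after their values were seen.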

Additional observations from a re-analysis of the deposited data

Results flagged for a closer look

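The share of non-adventitial fibroblast barcodes moved in opposite directions between genotypes at the 2 ages. Of all barcodes it was 0.571 percentage points higher in Zeb1 MSKO than in control at 8 weeks, and at 9 weeks the difference was -0.048 points. Of adventitial and non-adventitial fibroblasts together the difference was 6.62 points at 8 weeks and -10.8 points at 9 weeks. Each value compares 1 library with 1 library, the 9-week values rest on 6 and 3 barcodes, and the difference between ages was not tested.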

How the results depend on the processing

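The 9-week libraries hold 6 and 3 barcodes, which limits the comparisons over 4 libraries. The 0 genotype calls became 54 with age as a replicate block (11 higher and 43 lower), 23 with no filter on low counts and 1 with DESeq2, and leaving out a library gave 0 to 92. At 9 weeks, dropping the Zeb1 MSKO library gave the 92 and dropping the control library gave 8, where the lone sample was assumed to vary like the other group. The 0 calls for the difference from adventitial fibroblasts became 3 without called doublets, 2 without barcodes of epithelial signal, 3 with no filter, 1 in clusters 1 and 2 (an alternative chosen after seeing the data) and 0 to 4 with a library left out. The genotype difference in the share of barcodes ranged from -0.193 to 0.716 points with a library left out, the lowest when the 8-week Zeb1 MSKO library was dropped. The difference in the share of fibroblasts turned to 0.613 without called doublets and 0.388 in clusters 1 and 2, and ranged from -7.80 to 3.64 with a library left out (0.903 when the 9-week Zeb1 MSKO library was dropped). The 755 genes past 2-fold at 8 weeks became 446 with the rule at 60 per 10000, 442 without epithelial signal, 444 in clusters 1 and 2, 1701 at a floor of 20 CPM and 193 at 200 CPM. The cause of these changes was not tested.

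Among named genes the 8-week log2 ratio turned sign in 24 cases over all results. Without epithelial signal it was -1.44 for Stmn1, -0.019 for Cux1, -0.42 for Cldn10, -0.057 for Hmgb1, -0.66 for Dkc1, 0.50 for Aoc1, 0.34 for AW112010 and 0.89 for Wfdc18. In clusters 1 and 2 it was -0.33 for Stmn1, -0.23 for Cux1, -0.33 for Cldn10, -1.17 for Dut, -0.28 for Dkc1, 0.32 for Ly6d, 1.84 for Syn2, 0.77 for Aqp5 and 1.20 for Aoc1. With the rule at 60 per 10000 it was -0.30 for Dut, 0.13 for Ly6d, 1.67 for Syn2, 0.25 for Aqp5, 1.29 for Aoc1 and 0.58 for AW112010. Without called doublets it was 0.97 for Wfdc18.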
